A study of Mus musculus with 2239 samples.

Results

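The 10 genes described here encode small proteins of the S100 family (S100a4, S100a6, S100a10, S100a11, S100a13), annexins (Anxa1, Anxa2), galectins (Lgals1, Lgals3) and the LIM-domain protein gene Crip1, out of 23725 gene rows in the table. They were chosen by name, with earlier results of these cells known: the choice used how often the genes were seen in the same cell and which of them went with the markers Klrg1, Icos, Maf and Mki67. Those values are therefore descriptions, and no test is attached to them. The cells were regulatory T cells (Tregs) from the spleen of B6 male mice aged 7 months with a green fluorescent Foxp3 reporter. The gate took DAPI-negative cells positive for TCR beta, CD4 and the reporter, and the labels name no treatment. They were captured in droplets by inDrops, which gives each caught mRNA molecule a unique molecular identifier (UMI). Besides the spleen, 1 label names the colon, and no source used here says whether the library also took in colon cells. The 2239 labelled samples are single cells of 1 library, so no value has a replicate, and intervals (95%) cover counting error alone.

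Tregs are CD4 T cells that depend on Foxp3, a transcription factor, and hold immune responses in check. Resting Tregs circulate through lymphoid organs, while effector Tregs have met antigen, carry receptors such as KLRG1 and ICOS and can enter tissues. Most S100 proteins change shape on binding calcium and then bind partners at the membrane and the cell cortex, annexins bind membrane phospholipids when calcium is present, and galectins bind sugars on surface glycoproteins. Genes of these families are commonly more expressed in activated and migratory lymphocytes than in resting ones, and several of them are abundant in monocytes, macrophages and neutrophils.

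All 5 S100 genes lie on chromosome 3 in GRCm38.p6. S100a4 spans chr3:90603770-90606045 and S100a6 spans chr3:90612894-90614414, with 6848 bases and 1 gene, S100a5, between them. S100a11 (chr3:93520496-93526288) and S100a10 (chr3:93555117-93564645) lie 28828 bases apart in a second group. The others are Anxa1 on chromosome 19, Anxa2 on chromosome 9, Lgals1 on chromosome 15, Lgals3 on chromosome 14 and Crip1 on chromosome 12. S100a13 overlaps S100a1, Anxa2 overlaps Mir3109 and Lgals1 overlaps Gm30368 in the RefSeq annotation, so their counts are uncertain to the extent that reads of an overlapping gene were assigned to them.

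The promoters below, from RefSeq on GRCm38.p6, are the 250 bases before the annotated start, all on the plus strand. S100a4 and S100a6 are shown because, among pairs with at least 5 cells expected, theirs had the highest ratio of observed to expected shared cells, S100a11 because its ratios with both came next, and Anxa2 because it, like S100a11, holds an AP-1 motif. The windows are chr3:90603520-90603769 for S100a4, chr3:90612644-90612893 for S100a6, chr3:93520246-93520495 for S100a11 and chr9:69453433-69453682 for Anxa2.
S100a4: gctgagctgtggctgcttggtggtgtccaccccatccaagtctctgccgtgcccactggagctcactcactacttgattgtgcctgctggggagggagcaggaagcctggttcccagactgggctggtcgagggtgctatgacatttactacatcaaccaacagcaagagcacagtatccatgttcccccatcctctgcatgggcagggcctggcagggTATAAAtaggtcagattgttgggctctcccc
S100a6: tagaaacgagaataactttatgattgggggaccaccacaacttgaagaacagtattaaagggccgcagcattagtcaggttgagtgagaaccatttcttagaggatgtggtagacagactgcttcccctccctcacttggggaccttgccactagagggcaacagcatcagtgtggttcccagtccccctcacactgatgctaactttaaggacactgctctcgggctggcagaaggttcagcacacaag
S100a11: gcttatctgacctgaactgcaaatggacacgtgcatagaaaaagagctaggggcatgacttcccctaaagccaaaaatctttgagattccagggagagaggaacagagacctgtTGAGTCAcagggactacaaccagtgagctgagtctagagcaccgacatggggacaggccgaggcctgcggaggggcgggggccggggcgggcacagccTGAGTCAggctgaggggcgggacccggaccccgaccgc
Anxa2: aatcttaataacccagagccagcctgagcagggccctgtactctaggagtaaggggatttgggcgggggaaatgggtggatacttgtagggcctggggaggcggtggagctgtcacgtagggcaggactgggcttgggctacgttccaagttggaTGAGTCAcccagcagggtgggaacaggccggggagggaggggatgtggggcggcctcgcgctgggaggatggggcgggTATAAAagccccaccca
Capitals mark matches, on either strand, to the AP-1 motif TGANTCA or to the TATA box TATAAA, which do not overlap each other here. AP-1 is a family of factors induced by T cell activation, and the TATA box is a core promoter element. S100a11 holds 2 AP-1 matches, Anxa2 1 AP-1 match and 1 TATA match, S100a4 1 TATA match, and the S100a6 window neither. Of the 8 genes with a window in the table, 2 held an AP-1 match (Anxa2 and S100a11) and 3 a TATA match (Anxa1, Anxa2 and S100a4). Among all 32851 windows of that length, 6.75% held an AP-1 match and 12.4% a TATA match.

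Of the 2239 cells, 91.8% had at least 500 UMIs and were kept (500 to 4329 UMIs). Foxp3 had a UMI in 29.0% of kept cells, Cd3d in 36.8% and Cd4 in 19.5%, and most genes were missed in most cells at this depth. Cells with UMIs of at least 2 different marker genes of another lineage were present despite the gate: 84 carried B cell markers (median 895.5 UMIs), 41 carried myeloid and neutrophil markers (median 1085 UMIs) and 7 carried NK markers. A further set of 77 cells had a UMI of Cd8a or Cd8b1, nearly always Cd8b1, and 28.6% of those also had a Foxp3 UMI. The 90.4% of kept cells in none of these 4 sets are called unmarked cells here. They had a median of 972 UMIs, and 15.7% of them still held a UMI of a B cell, myeloid or NK marker gene. Foxp3 was seen in 2.38% of the B-marked and 7.32% of the myeloid-marked cells. No doublet caller was run, and doublets were not removed.

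The 10 genes gave 4078 UMIs, 0.189% of all UMIs in kept cells, and 68.8% of cells held at least 1 of them. Levels are UMIs of the gene per 10000 UMIs, pooled over cells. A UMI stands for 1 molecule caught by its poly(A) tail whatever the transcript's length, so levels can be set side by side between genes, although differences in capture were not measured. Crip1, which encodes a small cysteine-rich LIM protein, stood at 5.38 per 10000 (5.08 to 5.7), and S100a10, whose protein binds annexin A2 and has lost the ability to bind calcium, at 5.31 (5 to 5.62); their intervals overlapped. Lgals1, which encodes galectin 1, followed at 2.59 (2.38 to 2.82). S100a6 at 1.77 (1.59 to 1.95) and S100a4 at 1.5 (1.34 to 1.67) had overlapping intervals, as did S100a13 at 0.881 (0.76 to 1.02) and S100a11 at 0.849 (0.73 to 0.981). Anxa2 stood at 0.343 (0.269 to 0.431). Lgals3 at 0.172 (0.121 to 0.237) and Anxa1 at 0.121 (0.0788 to 0.177) were the lowest, with overlapping intervals.

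**Figure D1:**
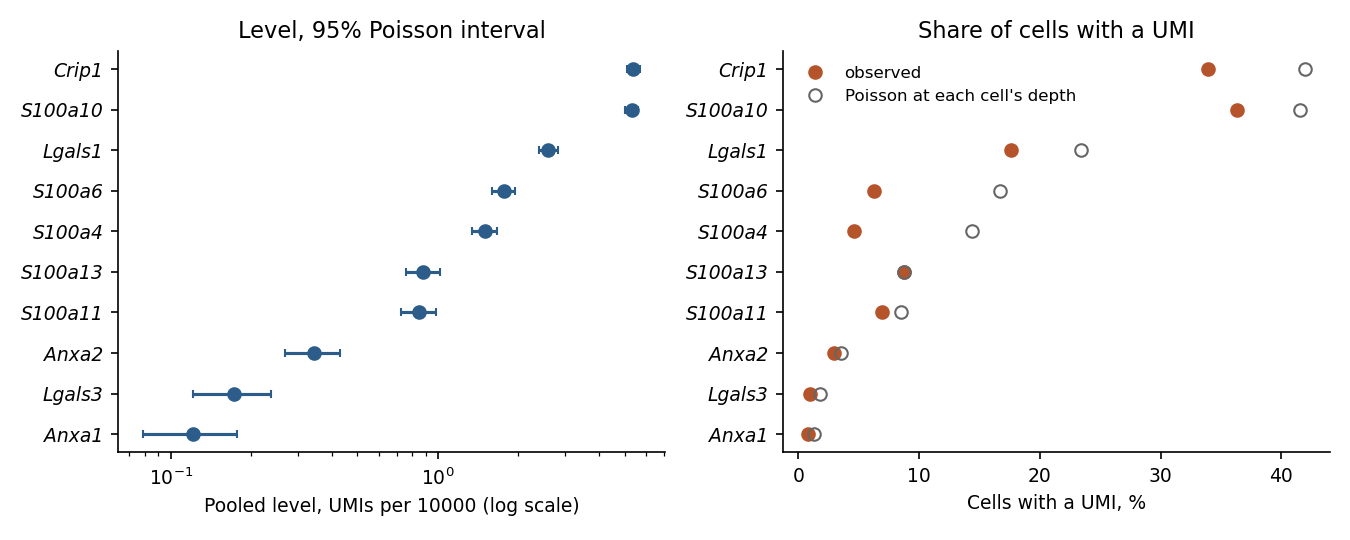
Left, the pooled level of each gene in UMIs per 10000 on a log axis with its 95% Poisson interval over the kept cells; right, the percentage of cells with a UMI (filled) beside the percentage that Poisson counts would give at each cell's own depth (open). S100a6 and S100a4 were seen in 6.28% and 4.62% of cells, far fewer than the open points, while S100a13 falls on its open point.

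The share of cells with a UMI did not follow the level. S100a4, whose protein binds non-muscle myosin and is linked to cell movement, was seen in 95 cells (4.62%), where Poisson counts at each cell's depth would put it in 296. S100a6, which encodes calcyclin, was seen in 6.28% of cells, and Poisson counts would put it in 343 cells. Their molecules were concentrated in few cells: 91.3% of the S100a4 UMIs and 82.7% of the S100a6 UMIs were in cells with at least 2 of them, the highest cell held 12 of S100a4 and 24 of S100a6, and the variance over the mean was 5.4 and 7.32, where depth alone gives 1.02 and 1.03. S100a13, which has been described as a helper in the release of growth factors, was the opposite. It was seen in 180 cells (8.76%), with 180 given by Poisson counts, its variance over the mean was 1.01, and no cell had more than 2 UMIs. S100a10 (36.3% of cells, ratio 2.03), Crip1 (33.9%, ratio 2.43), Lgals1 (17.6%, ratio 2.69), S100a11 (6.96%, ratio 1.7) and Anxa2 (2.92%, ratio 1.42) lay between, the ratio being the variance over the mean.

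Free RNA in droplets can give UMIs in cells that do not make a transcript, so the shares were set beside those in the 84 B-marked cells. S100a4 was seen in 1.19% of them (0.0301 to 6.46) against 4.2% of the unmarked cells, and S100a6 in 3.57% (0.743 to 10.1) against 5.54%; the median depths were 895.5 and 972 UMIs. Lgals1 was seen in 11.9% (5.86 to 20.8) against 17.8%, S100a10 in 29.8% (20.3 to 40.7) against 37% and Crip1 in 32.1% (22.4 to 43.2) against 33.8%. For these 5 genes the share in unmarked cells was the higher but lay inside the interval of the B-marked share. The shares of S100a13 (11.9% against 8.61%) and S100a11 (15.5% against 5.76%) were higher in the B-marked cells. By the share of cells with a UMI alone, none of the 7 was thus above this background beyond counting error. By level, S100a4 in B-marked cells stood at 0.177 of its value in unmarked cells (0.0213 to 0.645). S100a6 stood at 0.402 (0.129 to 0.949), S100a10 at 0.651 (0.44 to 0.93) and Crip1 at 0.704 (0.482 to 0.995). Lgals1 stood at 0.58 (0.307 to 1) and S100a13 at 1.31 (0.615 to 2.46), while S100a11 was higher, at 2.32 (1.2 to 4.11). B cells can express several of these genes, so the B-marked share is an upper guide to free RNA.

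Anxa1 and Lgals3 belonged mostly to the myeloid-marked cells. Of the 26 UMIs of Anxa1, whose protein is known for ending neutrophil recruitment, 88.5% were in those 41 cells (2% of cells), and 1 UMI was in the unmarked cells. Of the 37 UMIs of Lgals3, which encodes a galectin abundant in macrophages, 75.7% were there, at 5.25 per 10000 (3.49 to 7.58) against 0.0362 (0.0146 to 0.0746) in the unmarked cells. Anxa2, the membrane-binding partner of S100a10, had 37.8% of its UMIs in the myeloid-marked cells and was 24.2-fold higher there (14.4 to 39.9). S100a11 was 10.2-fold higher (6.82 to 15), S100a6 9.62-fold (7.32 to 12.5) and S100a4 7.68-fold (5.6 to 10.4). Lgals1 was 2.05-fold higher (1.35 to 3), and for Crip1 (1.4, 0.994 to 1.92), S100a10 (0.689, 0.419 to 1.07) and S100a13 (0.643, 0.131 to 1.91) the interval of the ratio held 1. The myeloid markers used for the gate were 12 other genes, so the members took no part in it.

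The members were next compared in pairs. For each pair the number of cells with a UMI of both was divided by the number expected if each gene were seen independently at each cell's depth, with the gene's own number of cells held fixed. The median ratio over the 45 pairs was 1.56, and 41 ratios were above 1. Of the 29 pairs with at least 5 cells expected, 11 were at 1.5-fold or more, with a median of 1.44. Of all 9724894 gene pairs with at least 5 expected, 4.25% were, with a median of 0.991. The choice of the genes used this very measure, so nothing is read from the difference.

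**Figure D2:**
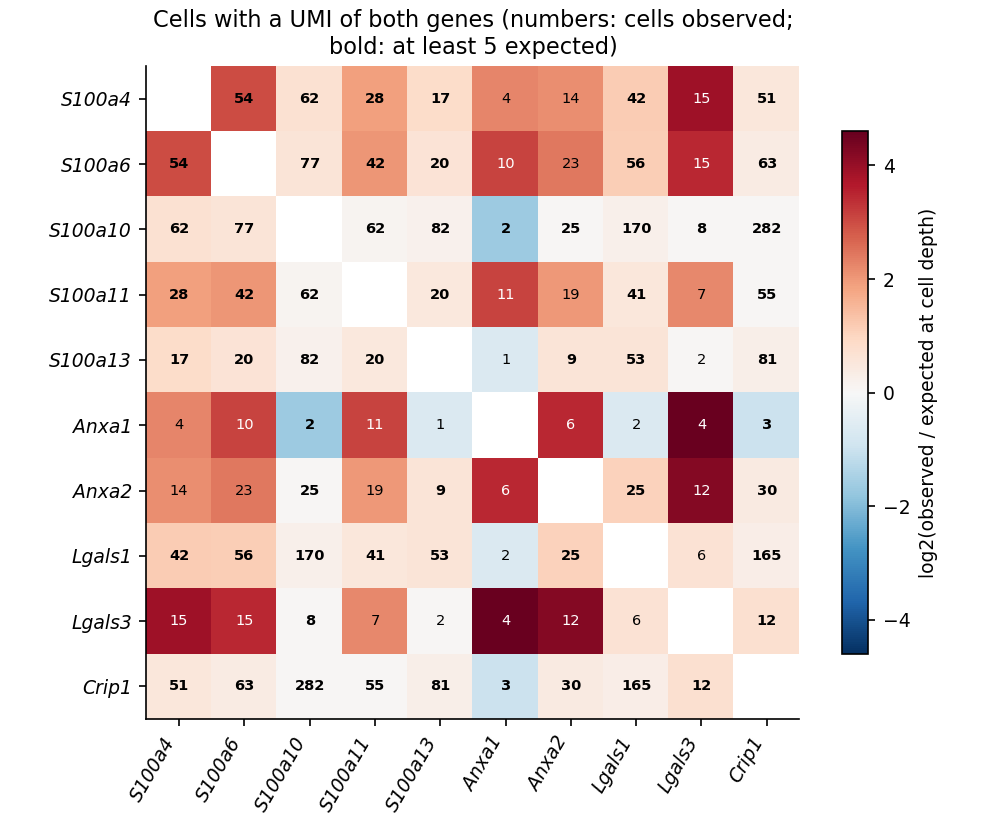
Colour gives the log2 ratio of cells with a UMI of both genes to the number expected at each cell's depth, and the number in each square is the observed count of cells, bold where at least 5 were expected. S100a4 and S100a6 share 54 cells, and the rows of S100a10 and Crip1 are pale apart from Anxa1.

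S100a4 and S100a6, neighbours on chromosome 3, were seen together in 54 cells where 6.8 were expected, a ratio of 7.94 (5.96 to 10.4). More than 5 in 10 of the 95 cells with S100a4 thus also held S100a6. S100a11, whose protein binds annexins at membranes, joined both: 42 cells held it with S100a6 (ratio 4.11, 2.96 to 5.56) and 28 with S100a4 (3.72, 2.47 to 5.37). Lgals1 was seen with S100a4 in 42 cells (2.23, 1.61 to 3.01) and with S100a6 in 56 cells (2.19, 1.66 to 2.85). The ratio for S100a4 and S100a6 was 8.52 with the 41 myeloid-marked cells left out and 8.36 in the unmarked cells alone.

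The abundant members had lower ratios, on a scale that is shorter for them. A ratio cannot pass the number of cells with the rarer gene divided by the number expected, and the median of this limit over the 9 pairs of a gene was 2.51 for S100a10, 2.67 for Crip1 and 5.04 for Lgals1, against 12.6 for S100a4, S100a6 and S100a11. The medians of the ratios themselves were 1.09, 1.23 and 1.49, against 3.72, 4.11 and 3.72, so their order is not read as an order of association. S100a13, with a limit of 10, had a median of 1.41. S100a10 and Crip1, the pair seen together in the most cells, had a ratio of 1.04 (0.922 to 1.17). S100a10 and Anxa2, whose proteins form a complex, shared 25 cells where 24 were expected (1.04, 0.675 to 1.54).

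All cells that Anxa1 shared with S100a11 and S100a6 were myeloid-marked. Anxa1 shared 11 cells with S100a11, its known binding partner (8.63, 4.31 to 15.4), 10 with S100a6 (8.69) and 4 with Lgals3 (23.5, with 0.171 expected). Without the 41 myeloid-marked cells these 3 pairs had no shared cell, but only 0.216, 0.188 and 0.0137 were then expected, so 0 says little about them. Anxa1 with S100a4 went from 4 cells (4.71, 1.28 to 12.1) to 1 (7.06), and with S100a13 it had 1 cell in both (0.625 and 3.33). Lgals3 and Anxa2 shared 12 cells where 0.638 were expected (18.8, 9.72 to 32.9), and 2 without the myeloid-marked cells, where 0.196 were expected. Lgals3 with S100a4 gave 15 cells (14.9, 8.33 to 24.5) and, without the myeloid-marked cells, 6 where 0.378 were expected (15.9).

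The number of members seen per cell was also set against depth. With independent detection at each cell's depth, 42.1 cells were expected to hold 4 or more of the 10, and 94 did, a ratio of 2.23 (1.81 to 2.73). For 5 or more the numbers were 50 and 6.27, and for 6 or more 24 and 0.699. The highest number was 8 members, in 4 cells. Lower numbers lay nearer to depth alone: the ratio was 1.16 (1.01 to 1.31) for 3 or more and 0.876 (0.808 to 0.949), below expectation, for 2 or more. Cells with none were more frequent than expected, 641 against 559. With every cell thinned to 500 UMIs, 37 cells held 4 or more where 3.75 were expected, and with S100a10 and Crip1 left out of the count, 37 did where 2 were expected (18.5, 13.1 to 25.6).

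**Figure D3:**
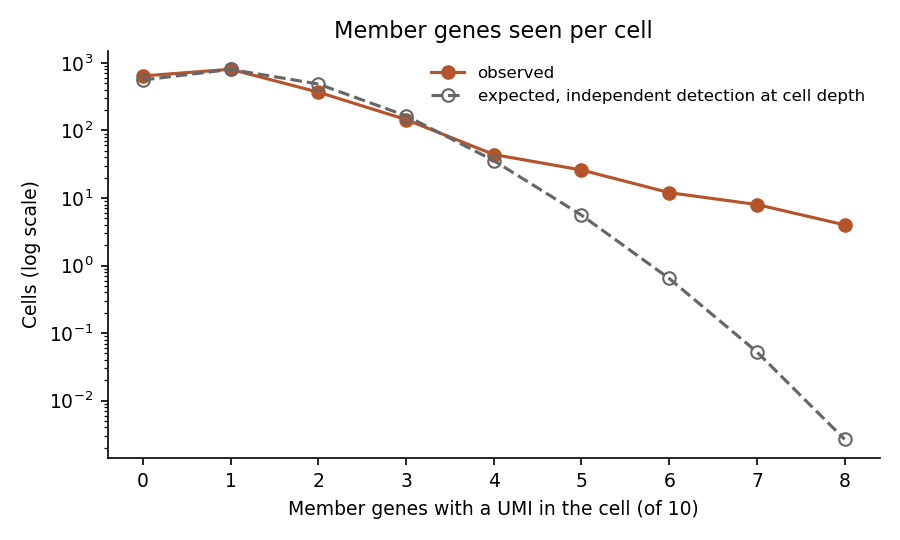
Number of cells, on a log axis, by how many of the 10 genes had a UMI (filled), beside the number expected under independent detection at each cell's depth (open). The lines part above 4 members: 50 cells held 5 or more where 6.27 were expected.

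The 94 cells with 4 or more members were of more than 1 kind. In 54 of them (57.4%) Klrg1, Icos or Maf was seen, against 13.2% of all kept cells, 16 were myeloid-marked, 4 were both, and 28 were neither. They were 4.57% of cells and held 6.46% of all UMIs, so they were deeper than the average cell. Among the 78 that were not myeloid-marked, S100a10 was seen in 91%, Crip1 in 82.1%, Lgals1 in 78.2%, S100a6 in 69.2% and S100a4 in 60.3%, while Lgals3 was seen in 7.69% and Anxa1 in 1 cell. In the 16 myeloid-marked cells the order was another: Anxa2 was seen in 87.5%, S100a6 in 81.2%, S100a4 in 68.8%, Lgals3 and Crip1 each in 62.5% and Anxa1 in 37.5%, while S100a10 and Lgals1 were each seen in 31.2%. Cd3d was seen in 53.8% of the 78 and in 1 of the 16, and Ikzf2, which encodes the Treg factor Helios, in 53.8% and 12.5%.

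Cells in which a marker was seen were then set against the rest. Klrg1 encodes an inhibitory receptor of late effector T cells, Icos a co-stimulatory receptor, Maf a transcription factor of effector Tregs, and Mki67 the Ki-67 protein of dividing cells. A gene counted as measured with at least 50 UMIs and at least 5 expected in the smaller side, and as higher at a ratio of pooled levels of 1.5 or more. With Klrg1 (48 cells) 7 of 7 measured members were higher, beside 19.7% of the other measured genes. With Icos (8.71% of cells) 7 of 8 were, beside 14.9%, and with Maf (6.13% of cells) 7 of 8, beside 18.3%. With Mki67 (14 cells) 3 of 3 were, beside 19.2%. The choice of the members used these splits, so the shares are given only for scale. The markers themselves overlapped, Icos with Maf in 53 cells where 12.5 were expected (4.25, 3.19 to 5.56), and ribosomal protein genes took less of the UMIs in cells with each marker (26.8% against 35.7% for Klrg1). Computed over non-ribosomal UMIs alone, the ratio of S100a4 with Klrg1 was 13.4, against 15.3 over all UMIs.

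**Figure D4:**
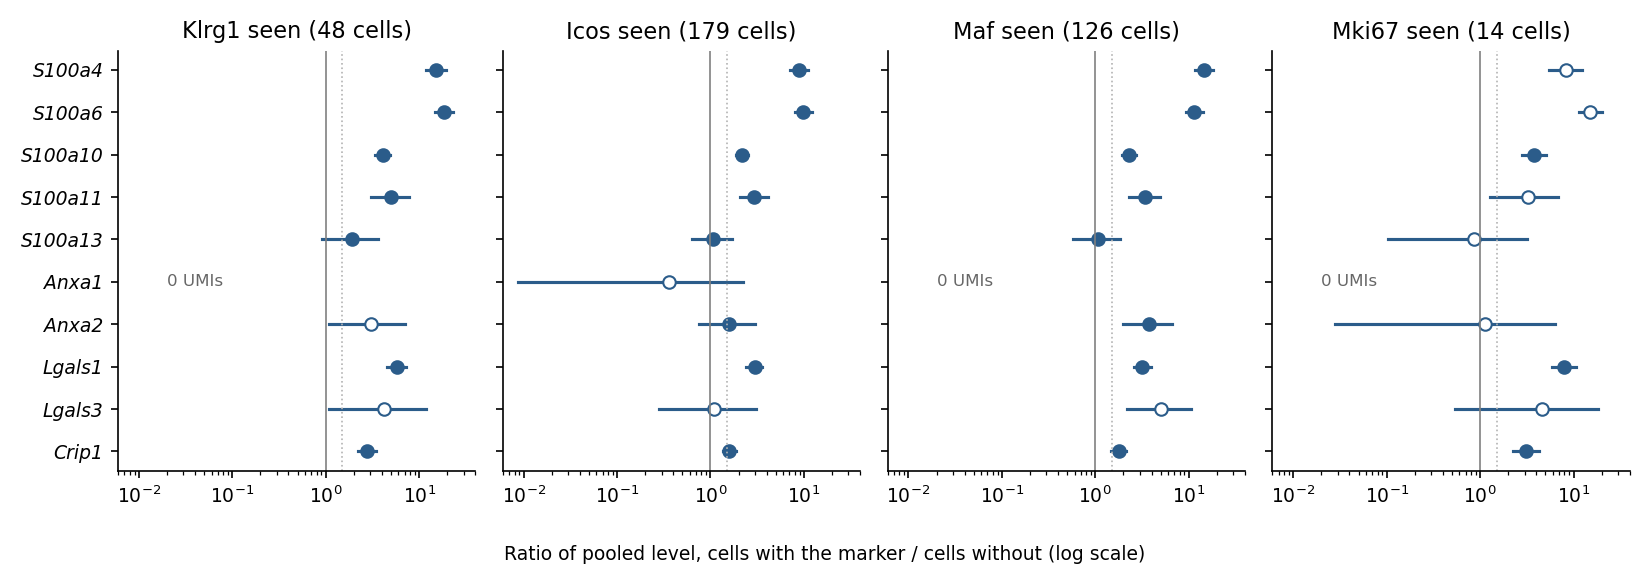
Ratio of each gene's pooled level in cells with a UMI of Klrg1, Icos, Maf or Mki67 to its level in cells without, on a log axis with the 95% exact interval; filled points are measured genes, open points rest on fewer UMIs, the solid line is 1 and the dotted line 1.5. S100a4 and S100a6 lie farthest to the right with Klrg1, Icos and Maf, and S100a13 lies near 1 with Icos and Maf.

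S100a4 and S100a6 had the highest ratios with Klrg1, Icos and Maf. S100a4 stood at 16.3 per 10000 (13.3 to 19.9) in cells with Klrg1 and at 1.07 (0.933 to 1.22) in cells without, a ratio of 15.3 (11.9 to 19.4). It was seen in 43.8% of the cells with Klrg1 and 3.69% of the others. Its ratio was 8.88 (7.1 to 11.1) with Icos and 14.5 (11.6 to 18.1) with Maf. S100a6 was 18.5-fold higher with Klrg1 (14.9 to 23), 9.89-fold with Icos (8.05 to 12.2) and 11.5-fold with Maf (9.33 to 14.1), and 52.1% of the cells with Klrg1 held it against 5.18% of the others. S100a11 stood at 4.97 (3.06 to 7.72), 2.95 (2.06 to 4.16) and 3.43 (2.32 to 4.94).

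Lgals1, whose protein can bind and restrain other T cells, was 5.77-fold higher with Klrg1 (4.5 to 7.32), 2.97-fold with Icos (2.43 to 3.6) and 3.2-fold with Maf (2.57 to 3.96). S100a10 had ratios of 4.09 (3.36 to 4.94), 2.19 (1.88 to 2.54) and 2.31 (1.95 to 2.73). Crip1 had the lowest ratios of the members whose 3 intervals lay above 1, at 2.8 (2.22 to 3.48), 1.59 (1.35 to 1.88) and 1.79 (1.49 to 2.15). Anxa2 was 3.73-fold higher with Maf (2 to 6.57), while its interval with Icos held 1 (1.58, 0.751 to 3.02). S100a13 gave 1.92 (0.905 to 3.61) with Klrg1, 1.06 (0.634 to 1.7) with Icos and 1.08 (0.576 to 1.85) with Maf, and each interval held 1.

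The 2 members that lay mostly in myeloid-marked cells had too few UMIs to be counted as measured. Anxa1 had 0 UMIs in the 48 cells with Klrg1 and in the cells with Maf, and 1 in the cells with Icos. Lgals3 had 4, 4 and 10 UMIs with Klrg1, Icos and Maf, with ratios of 4.19 (1.08 to 11.8), 1.1 (0.282 to 3.08) and 5.01 (2.16 to 10.7). With the myeloid-marked cells left out, a setting added after the data were seen, the Lgals3 ratio with Klrg1 was 29.5, the Lgals3 ratio with Icos 7.13 and the Lgals3 ratio with Maf 7.04, on the 9 UMIs that remained. Among the cells with Klrg1, Icos and Maf, 3, 1 and 5 were myeloid-marked, and the 12 myeloid markers summed to 10.4, 2.98 and 14.3 per 10000 in them, against 6.59, 7.11 and 6.14 in the cells without. Of those markers Retnlg and Cd68 had no UMI with any of the 3.

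Mki67 was seen in 14 cells, which were 0.681% of cells and held 1.21% of all UMIs. In them Lgals1 was 8-fold higher (5.86 to 10.7), S100a10 3.8-fold (2.81 to 5.03) and Crip1 3.13-fold (2.25 to 4.25). A single cell gave 15 of the 50 Lgals1 UMIs, 17 of the 51 of S100a10 and 18 of the 43 of Crip1. The intervals do not cover this spread between cells and are too narrow for 14 cells. Of these ratios 2 fell below 1 in other settings, in which no member was counted as measured. With cells thinned to 500 UMIs the S100a10 ratio with Mki67 was 0.793. Without cells holding another of the 4 markers, 6 cells with Mki67 remained. The S100a10 ratio with Mki67 was then 0.693 (0.143 to 2.03, 3 UMIs) and the Crip1 ratio with Mki67 0.42 (0.0508 to 1.52, 2 UMIs). The Lgals1 ratio with Mki67 was 1.56 (0.321 to 4.6, 3 UMIs). Each of these intervals held 1. S100a6 (60 UMIs, 15.2-fold) and S100a4 (30 UMIs, 8.33-fold) had fewer than 5 UMIs expected in so few cells and were not counted as measured. Because the 14 cells are few, a wider set was added after the data were seen, the 59 cells with a UMI of any of 7 proliferation genes. With it 6 of 7 measured members were higher, beside 14.3% of the other measured genes. S100a6 was 7.18-fold higher (5.63 to 9.08), S100a4 4.63-fold (3.41 to 6.18), Lgals1 3.3-fold (2.55 to 4.22), S100a11 2.8-fold (1.69 to 4.43), Crip1 2.22-fold (1.8 to 2.7) and S100a10 2-fold (1.61 to 2.47), and S100a13 stood at 1.07 (0.483 to 2.08).

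Sorting the cells by how many of the 4 markers were seen, a grouping made after the data were seen, separated the members further. S100a4 stood at 0.349 per 10000 (0.269 to 0.446) in the 86.5% of cells with none, at 4.73 (3.87 to 5.72) in the 9.93% with 1 and at 15.6 (13.2 to 18.3) in the 73 cells with 2 or more. S100a6 stood at 0.567, 3.79 and 19.6 per 10000. For both genes the 3 intervals did not overlap. The sets held 85%, 10.4% and 4.55% of all UMIs, so the 73 cells, which were 3.55% of cells, were deeper than the average cell. Crip1 did not differ between none and 1 marker beyond its intervals, at 4.96 (4.65 to 5.3) and 5.04 (4.15 to 6.06), and stood at 14.1 (11.8 to 16.6) with 2 or more. S100a10 went from 4.51 to 6.6 and 17.2 per 10000, and Lgals1 from 2 to 3.57 and 11.4. For S100a13 the 3 intervals overlapped, at 0.862 (0.732 to 1.01), 0.981 (0.615 to 1.49) and 1.02 (0.488 to 1.87).

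Cells with another of the 4 markers were then left out. In the 5.6% of cells with Icos alone S100a4 was still 9.83-fold higher (6.54 to 14.7) and S100a6 5.36-fold (3.61 to 7.82), and Lgals1 1.71-fold (1.22 to 2.35). S100a10 stood at 1.47 (1.16 to 1.84) and Crip1 at 1.1 (0.85 to 1.4). In the 64 cells with Maf alone S100a4 was at 20.1 (13.5 to 29.8) and S100a6 at 5.8 (3.49 to 9.26), both with too few UMIs expected to be counted as measured. S100a10 was at 1.09 (0.748 to 1.55) there and Crip1 at 0.994 (0.68 to 1.41). In the 19 cells with Klrg1 alone S100a4 stood at 21.9 (11.6 to 38.9, 15 UMIs) and S100a6 at 21.6 (13.2 to 33.9, 24 UMIs). Both again had too few UMIs expected to be counted as measured. Crip1 stood at 0.823 (0.354 to 1.63) in these cells and S100a10 at 3.06 (2 to 4.48). The counts of higher members were then 1 of 2 measured for Klrg1, 3 of 7 for Icos and, for Maf, 1 of 4, which was Lgals1 at 1.64 (1.02 to 2.53). In the 6 cells with Mki67 alone S100a4 and S100a6 had 0 UMIs, which allows up to 11.3-fold and 6.9-fold, and Crip1 and S100a10 had 2 and 3.

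Genes of the Treg program in general gave other values. With Foxp3 (595 cells) 0 of 8 measured members were at 1.5-fold or more, beside 2.81% of the other measured genes. Anxa2 stood at 0.6 (0.316 to 1.07), an interval that held 1. Of its UMIs 37.8% lay in the myeloid-marked cells, of which 7.32% had a Foxp3 UMI, and a link was not tested. S100a10 stood slightly higher, at 1.16 (1.02 to 1.31), and S100a4 (0.955, 0.742 to 1.22), S100a6 (0.958, 0.761 to 1.2) and Crip1 (0.998, 0.878 to 1.13) had intervals that held 1. With Ikzf2 (804 cells) 4 of 8 were at 1.5-fold or more, beside 4.46%, among them S100a6 at 2.36 (1.91 to 2.93) and Lgals1 at 1.76 (1.48 to 2.09). With Cd4, the co-receptor gene, S100a4 stood at 1.88 (1.48 to 2.38) and S100a6 at 2.03 (1.63 to 2.51). With Ly6c1, a surface protein gene of resting T cells, S100a4 was at 0.661 (0.46 to 0.926) and S100a11 at 0.338 (0.171 to 0.605).

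The UMIs were lastly divided over 3 sets of cells, also formed after the data were seen. The cells with Klrg1, Icos or Maf that were not myeloid-marked were 12.8% of cells and gave 14% of all UMIs. They held 72.8% of the S100a4 UMIs, 64.6% of S100a6, 33.3% of S100a11, 30.8% of Lgals1, 26.7% of S100a10, 20.4% of Crip1, 17.6% of Anxa2 and 15.8% of S100a13. The 41 myeloid-marked cells gave 2.48% of all UMIs and held 16.4% of S100a4 and 19.2% of S100a6. The remaining 1750 cells, 85.2% of the total, held 10.8% of S100a4 and 16.3% of S100a6, but 71.6% of S100a10, 76.1% of Crip1 and 82.6% of S100a13. S100a4 was thus at 7.81 per 10000 (6.84 to 8.87) in the first set, 9.93 (7.44 to 13) in the second and 0.194 (0.135 to 0.27) in the third. Foxp3 was at 4.05, 0.562 and 3.75 per 10000.

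**Figure D5:**
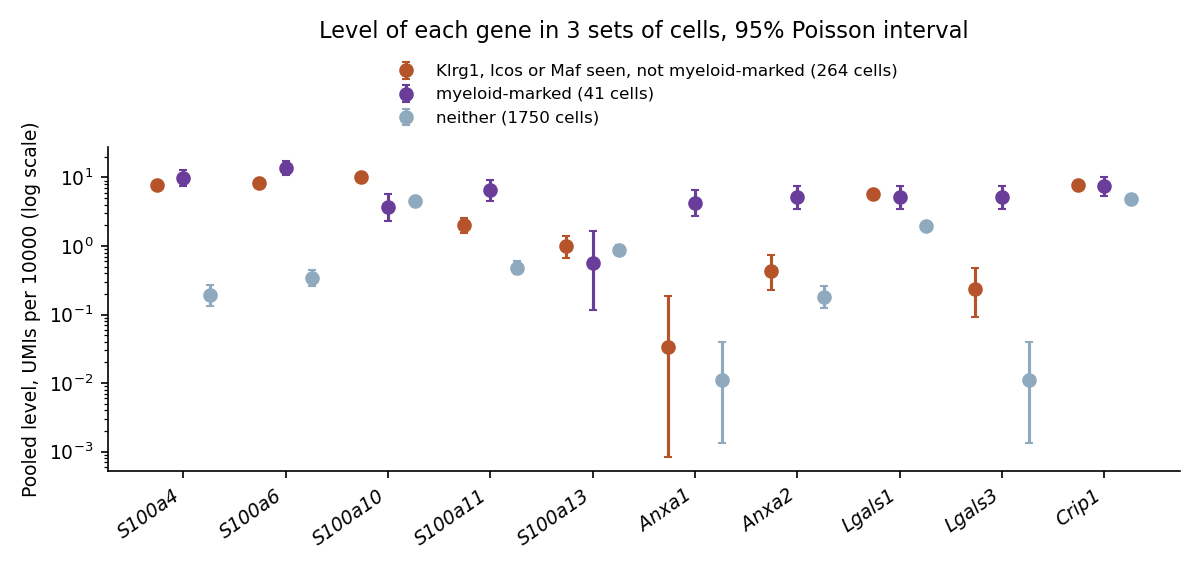
Pooled UMIs per 10000 of each gene on a log axis, with 95% Poisson intervals, in cells with Klrg1, Icos or Maf that were not myeloid-marked, in the 41 myeloid-marked cells and in the other 1750. S100a4 and S100a6 are high in the first 2 sets, Anxa1 and Lgals3 in the myeloid-marked cells, and the intervals of S100a13 overlap.

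Within the cells with Klrg1, Icos or Maf that were not myeloid-marked, S100a4 and S100a6 were seen together in 38. From the number of these cells with each gene and their depth, 17.3 were expected (2.2, 1.55 to 3.01). In the 1750 other cells S100a4 and S100a6 shared 6, where 0.596 were expected (10.1, 3.69 to 21.9). S100a6 and S100a11 gave 1.76 (1.11 to 2.67) in the first set and 3.69 (1.69 to 7.01) in the 1750, there on 9 cells where 2.44 were expected. For both of these pairs fewer than 5 cells were expected in the 1750. S100a10 and Crip1 gave 1.18 (0.904 to 1.52) and 0.996 (0.868 to 1.14), and S100a10 and Lgals1 1.36 (1.02 to 1.78) and 1.05 (0.867 to 1.27).

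Genes other than the members were compared between the 11.6% of cells with 3 or more members and the 641 cells with none. A class formed this way is a range of a count, not a cell type: 7.06% of cells held exactly 3 members and 18% held 2, just outside. The number of cells with 3 or more was only 1.16 times that given by depth alone. These cells were deeper (median 1206 against 904 UMIs), had a lower ribosomal share (30.6% against 36.4%) and included 24 myeloid-marked cells against 6. Of 2811 genes measured, 11.1% were at least 1.5-fold higher and 5.83% at least 1.5-fold lower in the cells with 3 or more. Among the 12 genes with the highest ratios, Lyz2, Il1b, Lyz1, Fcer1g, Tyrobp, S100a9 and S100a8 are genes of myeloid cells. Among unmarked cells they had at most 4 UMIs in the cells with 3 or more members (Lyz2 had 0, Fcer1g 4 in place of 79), so no ratio is given for them there. Lyz2, Fcer1g, Tyrobp, S100a8 and S100a9 are themselves markers of the myeloid gate, so leaving out marked cells removed their UMIs by design. Il1b and Lyz1 took no part in the gate and also had 0 UMIs in those cells. The other 5 follow, with values among unmarked cells in brackets. Klrg1 stood at 41.5 (48.1) and Ccr2, the receptor for monocyte chemoattractants that effector T cells also carry, at 32.6 (51 UMIs against 1). The histone gene Hist1h2ao stood at 12.9 (18.6). Fgl2, which encodes a secreted fibrinogen-like suppressive protein, stood at 9.44 (27.1), and Stmn1, a microtubule regulator gene of dividing cells, at 6.87 (7.7). Among unmarked cells Klrg1, Fgl2 and Stmn1 had fewer than 50 UMIs over both classes. They were not counted as measured there, and their bracketed ratios rest on few UMIs. Hist1h2ao, with 18 UMIs in the cells with no member, was measured with the help of its higher level. Only 12 of the cells with 3 or more members held it. At the other end Satb1, a chromatin organiser gene of resting T cells, stood at 0.348 (0.253 to 0.47), with 0.364 among unmarked cells. The other 7 of the 8 lowest genes, Cebpz, Ubr4, Rcn1, Rbm25, Pdpk1, Fam208a and Dclre1c, lay between 0.257 and 0.439 on few UMIs.

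Lists of related genes were read in the same comparison, beside a median ratio of 1.05 over all 2811 genes. Of 16 measured partners and cortical cytoskeleton genes 10 were higher and 0 lower (median 1.77): Cd44, a hyaluronan receptor gene, at 4.78 (3.1 to 7.56), Vim, the intermediate filament gene vimentin, at 3.5 (2.91 to 4.22), the integrin gene Itgb1 at 3.37 (2.33 to 4.93) and Ahnak, whose product binds the S100A10 and annexin A2 complex, at 3.31 (2.44 to 4.52). Tmsb10 and Actb, at 0.97 and 1.18, were not. Of 14 measured effector Treg genes 9 were higher and 0 lower (median 1.78), including Klrg1, Ccr2, Fgl2 and Maf (6.86, 4.08 to 12.1); Klrg1, Icos and Maf repeat the splits above. Klrg1, Ccr2 and Fgl2 had fewer than 50 UMIs outside the cells with 3 or more members, so they were measured only because they were high there. Leaving out these genes with Icos and Maf, 4 of 9 were higher. Among those 4, Id2 had 43 UMIs in the cells with 3 or more members and 12 in those with none. The 50 UMIs were counted over these 2 classes alone, so Id2 too was measured only because it was high. Cd44, with 76 and 30 UMIs, also reached 50 with the help of its higher level. Of 12 resting genes 0 were higher and 4 lower (median 0.87): Satb1, Ly6c1 at 0.551 (0.399 to 0.75), Bach2 at 0.562 (0.286 to 1.04) and Ccr7, the lymph node homing receptor gene, at 0.571 (0.41 to 0.782). Of 5 measured proliferation genes 3 were higher: Stmn1, with fewer than 50 UMIs outside these cells, Hmgb2 at 3.02 (2.23 to 4.11) and H2afz at 1.87 (1.6 to 2.17). Of 6 Treg identity genes 0 were higher and 1, Socs2, was lower, at 0.663 (0.432 to 0.995), and Foxp3 stood at 0.888 (0.688 to 1.14).

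Relatives of the members were read in the same way. All 3 measured annexin genes outside the set were higher, Anxa5 at 2.31 (1.4 to 3.85), Anxa6 at 1.96 (1.6 to 2.4) and Anxa11 at 1.89 (1.05 to 3.38). Anxa5 had 38 UMIs in the cells with 3 or more members and 31 in those with none, and Anxa11 26 and 26. Both were thus measured with the help of their higher level, so the count of 3 is partly set by the threshold. Both measured galectin relatives, Lgals9 at 1.25 (0.899 to 1.72) and Lgals3bp at 1.22 (0.736 to 1.98), had intervals that held 1. Of 3 measured LIM protein genes Zyx, which encodes the adhesion protein zyxin, stood at 2.19 (1.38 to 3.47), and Csrp1 (1.05) and Lmo4 (0.831) at neither threshold. The only measured S100 relatives were S100a8 and S100a9, genes of neutrophils and monocytes; S100a5, S100a14, S100a16, S100b and S100g had 0 UMIs in the kept cells, which allows each a UMI in up to 0.146% of cells. Among unmarked cells, where 10.3% of other measured genes were higher and 5.60% lower, 11 of 16 partners and cytoskeleton genes, 7 of 11 effector genes and 3 of 4 proliferation genes were higher. Of those 7 effector genes, Maf and Icos repeat the splits above. Ccr2, with 51 UMIs in cells with 3 or more members and 1 in those with none, was measured only because it was high. The others were Ctla4 at 1.92, Gata3 at 1.67, Ikzf2 at 1.52 and Batf at 1.7, whose interval held 1 (0.985 to 2.9). Cd44, with 34 and 20 UMIs, was also measured with the help of its higher level. Of 12 resting genes 5 were lower and 1, the cytokine receptor gene Il7r, was higher among unmarked cells, at 1.55 (1.05 to 2.29). Anxa6 stood at 2.04 (1.64 to 2.54) among unmarked cells, while the intervals of Anxa5 (1.64, 0.909 to 2.92), Anxa11 (1.77, 0.91 to 3.39) and Zyx (1.56, 0.914 to 2.63) then held 1.

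The genes seen with single members most often beyond depth were found among pairs with at least 5 cells expected. For S100a4 they were Maf (41 cells where 6.64 were expected, 6.17), Glrx, which encodes glutaredoxin, a redox enzyme (5.94), and Icos (4.57), among 3034 candidate genes. For S100a6 they were Glrx (4.93), Maf (4.55) and Cd44 (3.7), among 4022. Maf and Icos were among the markers used to choose the members, so their ranks repeat the splits above. For Lgals1 they were Ccr2 (3.35, 2.1 to 5.08), Stmn1 (2.27) and E2f2, a cell cycle transcription factor gene (1.99), among 5219. For Lgals3, with the fewest candidates, they were Psap (2.93), a lysosomal protein gene, Cyba (2.65), a subunit gene of the phagocyte oxidase, and Gnb2 (2.29). The points of each comparison are cells of 1 library that share its depth, and the values are descriptions.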

How the data were processed

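The deposited table holds raw UMI counts, 1 row per gene and 1 column per cell, judged from the file header and its whole-number values. Library preparation is per the labels' protocols. TopHat2, SAMtools and mm10 are named in the submitters' processing notes, without versions; settings and the annotation are not given in the sources used here. Gene coordinates, overlaps and promoters came from RefSeq (GRCm38.p6), which matched all 10 members.

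Computed here (Python 3.11.15, numpy 2.4.6, pandas 2.3.3, scipy 1.17.1): cells under 500 UMIs were set aside (184), counts were pooled as UMIs per 10000, which is CPM on another scale, and intervals are exact Poisson (levels, co-detection), Clopper-Pearson (shares) and exact conditional (ratios), at 95%, for counting error only. Expected co-detection used p = 1 - exp(-total x f), with f set to give the observed number of cells. T cell receptor genes were left out of the ratios, and a count of 0 was set to 3 UMIs where a ratio over all genes was formed. With 1 library there was no test. Members and lists were chosen with earlier results of these data known. Genes named outside the set were the 12 highest and 8 lowest between cells with 3 or more members and none, the 3 most alike for S100a4, S100a6, Lgals1 and Lgals3, the markers (1 is not reported here), and up to 4 of each list by size; others were chosen after their values were seen. The steps were tested on simulated counts.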

Additional observations from a re-analysis of the deposited data

How the results depend on the processing

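Of 1100 alternative values, 912 were counted as unchanged, 182 moved further and 6 were ratios that crossed 1, by however little. Unchanged meant inside the interval of the value as reported, or within 1.5-fold of it for values without an interval. Those were the counts of members and cells, the percentage of higher genes and the list medians. With cells holding another of the 4 markers left out, the ratio of Crip1 became 0.823 with Klrg1 (0.354 to 1.63), 0.994 with Maf (0.68 to 1.41) and 0.42 with Mki67 (0.0508 to 1.52). That of Anxa2 with Icos became 0.81 (0.162 to 2.5) and that of S100a10 with Mki67 0.693 (0.143 to 2.03). Each of these intervals held 1. With cells thinned to 500 UMIs S100a10 with Mki67 became 0.793. The count of members at least 1.5-fold higher with a Klrg1 UMI (7 of 7 measured) was 2 of 2 with cells thinned, 4 of 4 without the 5% of cells with the most UMIs, 1 of 2 without cells holding another marker and 3 of 3 with at least 2 UMIs of the marker. The count with an Icos UMI (7 of 8) was 3 of 7 without cells holding another marker. The count with a Maf UMI (7 of 8) was 4 of 5 thinned, 1 of 4 without cells holding another marker and 3 of 4 with at least 2 UMIs. The count with a Mki67 UMI (3 of 3) was 1 of 1 without the 5% deepest cells and 6 of 7 with any of 7 proliferation genes; in the other 3 settings it was 0 of 0 because none was measured. The cause of these differences was not tested. Cells with 4 or more members (94) numbered 37 thinned and 37 without S100a10 and Crip1. The percentage of genes higher in cells with 3 or more members (11.1) was 21 thinned, 6.9 without ribosomal UMIs in the total, 6.5 for 2 or more members and 18.6 for 4 or more. The mean Pearson correlation of log2(1 + UMIs per 10000) over the 45 pairs was 0.129 (-0.0426 to 0.526), above 0 in 41, over cells that share 1 library. S100a4 and S100a6 with Klrg1 ran from 13.4 to 21.9 and from 14.5 to 33.4 over 13 alternatives. No paired analysis was possible because there is 1 library and no test. Depth (500 to 4329 UMIs per cell) limits Anxa1, Lgals3 and Anxa2 most, with 26, 37 and 74 UMIs.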
